A study of Mus musculus with 2 samples.

Results

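The genes described here are those of MHC class I and antigen presentation in mouse heart at embryonic day 12.5. They were taken by name: the protein-coding genes with the prefix H2-, together with B2m, Tap1, Tap2, Tapbp, Psmb8, Psmb9, Psmb10, Cd74 and Ciita. This gave 44 genes (46 annotated gene rows) among 22240 protein-coding symbols. Nlrc5 was also sought, but the files type its row as a lincRNA, so it is not counted among the 44. RNA was measured by sequencing in 2 libraries of heart from mice of a mixed C57BL/6 x 129S6 background, replicate 1 and replicate 2, with no treatment, and both belong to 1 group. Whether they stem from separate embryos or from pools is not stated, so the spread between the libraries may be technical. No conditions are compared, and with 2 libraries an exact two-sided sign-flip test cannot give a p below 0.5, so none is printed.

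MHC class I molecules display peptides on the cell surface to CD8 T cells and natural killer cells. A heavy chain, encoded by H2 genes in the mouse, pairs with the invariant light chain beta-2 microglobulin. Peptides are cut by the proteasome, carried into the endoplasmic reticulum by the TAP transporter and loaded with the help of tapasin. MHC class II molecules are mostly made by professional antigen-presenting cells, and both classes are induced by interferon gamma.

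Levels are in FPKM, that is, sequenced fragments divided by transcript length and by the size of the library, so they can be compared between genes. A value with ± is the mean and SD of both libraries (n = 2), and log2 ratios between genes are of FPKM + 1 unless another pseudocount is named. Genes that reached 1 FPKM in both libraries are called detected. All values of a library added up to 388230 FPKM for replicate 1 and 382561 FPKM for replicate 2, and their depth in reads is unknown. Among 2881 genes above 0 and under 0.1 FPKM in both libraries, the commonest ratio of replicate 2 to replicate 1 was 1.33. Of them, 481 lay within 0.05 of it on the log2 scale. If that ratio stands for 1 fragment in each library, replicate 2 was the shallower, but this was not checked against read counts. The cardiomyocyte markers were detected in 6 of 6 cases, with Actc1, the cardiac actin, at 4383 and 4244 FPKM in replicates 1 and 2.

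The promoters of the light chain and of the classical heavy chains are shown first, because these partners differ widely in level below, and with them the one that Psmb9 shares with Tap1. Each stretch is the 250 bases before the RefSeq start on GRCm38.p6, written 5′ to 3′ on the gene's strand. Capitals mark matches, on either strand, to CCAAT (the letters of the Y box), GAAANNGAA and GAANNGAAA (core letters of interferon response elements) and GGGANTCCC (the core of a kappaB palindrome known from class I enhancers). No marked matches overlap in these stretches.
B2m, chr2:122147437-122147686, plus strand: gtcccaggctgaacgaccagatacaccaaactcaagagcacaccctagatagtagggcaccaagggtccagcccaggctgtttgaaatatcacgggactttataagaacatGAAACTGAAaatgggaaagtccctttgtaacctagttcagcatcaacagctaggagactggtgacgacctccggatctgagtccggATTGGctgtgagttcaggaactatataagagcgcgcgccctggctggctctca
H2-D1, chr17:35262844-35263093, plus strand: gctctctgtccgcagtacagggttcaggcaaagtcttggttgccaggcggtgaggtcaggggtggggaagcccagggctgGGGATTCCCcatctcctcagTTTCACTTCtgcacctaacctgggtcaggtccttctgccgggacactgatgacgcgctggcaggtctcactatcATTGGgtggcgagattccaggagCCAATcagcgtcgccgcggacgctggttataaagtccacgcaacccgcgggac
H2-K1, chr17:34000334-34000583, minus strand, the downstream of its annotated starts: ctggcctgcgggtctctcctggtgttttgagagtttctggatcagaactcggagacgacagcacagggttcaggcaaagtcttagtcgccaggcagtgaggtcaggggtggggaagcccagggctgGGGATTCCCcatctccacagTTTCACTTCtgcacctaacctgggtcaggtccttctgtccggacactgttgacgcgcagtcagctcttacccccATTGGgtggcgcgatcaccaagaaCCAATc
Psmb9, chr17:34187331-34187580, minus strand: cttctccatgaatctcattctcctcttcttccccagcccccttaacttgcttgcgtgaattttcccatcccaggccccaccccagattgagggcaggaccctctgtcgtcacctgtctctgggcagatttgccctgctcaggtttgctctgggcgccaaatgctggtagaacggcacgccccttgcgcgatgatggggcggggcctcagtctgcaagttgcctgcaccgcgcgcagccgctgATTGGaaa

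RefSeq promoters were matched for 38 of the 44 genes, 1 of them (H2-Ke2) under the symbol Pfdn6. The search used 250 bases before to 50 after the first listed start of each. The kappaB letters stood in 4 of the 38 (10.5%), H2-D1, H2-K1, H2-Q6 and H2-Q7, and in 252 of 32851 promoters overall (0.767%). Counted from the start site, their match began at -170 in H2-D1 and, in H2-K1, at -110 from the first listed start and at -124 from the downstream start, whose promoter is printed above. The letters GAANNGAAA stood in 8 of the 38 (21.1%), all of them class I heavy chain genes, against 7.52% of all promoters, beginning at -150 in H2-D1 and at -90 and -104 from the same starts of H2-K1. The B2m promoter matched neither set of letters but held GAAANNGAA, at -139. So did those of H2-T22, at -190, and H2-T23, at -123 (3 of 38, 7.89%, against 8.56% of all promoters). The printed B2m stretch also reads gggaaagtccc, which the letters GGGANTCCC cannot match. The lack of a match there thus does not show that a kappaB site is lacking. CCAAT stood in 31 of the 38 (81.6%) against 37.4% overall. The letters were chosen after these promoters were seen, so the shares describe the 38 and do not test them for enrichment. The overall shares count every listed promoter, whereas each of the 38 genes counts once. H2 genes are copies of each other, so their promoters are not independent cases, and a match of letters does not show that a factor binds.

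In total 10 of the 44 genes were detected (22.7%), against 52.4% of all protein-coding genes. Another 11 were listed at 0 in both libraries, against 20.3% of all protein-coding genes, and 23 had a mean above 0 but under 1 FPKM. The median level was 0.262 FPKM for the 44 genes and 1.67 FPKM for all protein-coding genes. A 0 in an FPKM table can stand for an estimate that failed, so it is not proof of absence. In whole tissue, fewer cells of a type and less RNA per cell cannot be told apart.

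**Figure D1:**
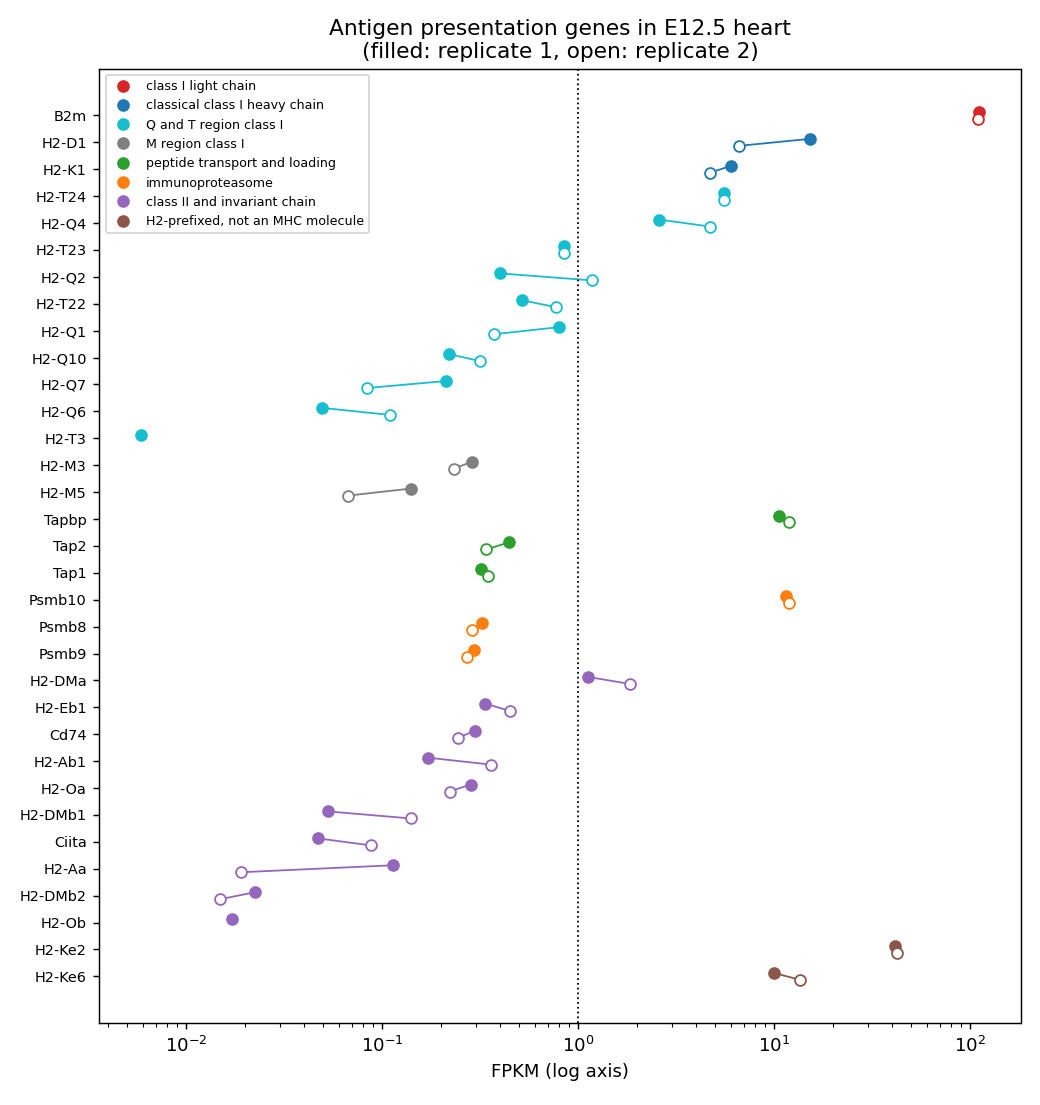
FPKM (log axis) of the 33 genes above 0 in at least 1 library, by role, with replicate 1 filled and replicate 2 open; the dotted line marks 1 FPKM. B2m lies near 110 FPKM in both libraries and most other genes lie under the line; the 11 genes listed at 0 in both, and the 0 of H2-T3 and H2-Ob in replicate 2, are not drawn.

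B2m, the light chain that class I heavy chains need to reach the cell surface, was the highest of the 44. Its level was 110.7 FPKM in replicate 1 and 109.6 FPKM in replicate 2 (chromosome 2, 121973422 to 121978819, mm9). The mean of 110 ± 0.793 FPKM put B2m at percentile 98.1 of protein-coding genes, rank 431, and replicate 2 minus replicate 1 was -0.015 on the log2(FPKM + 1) scale. B2m shared no stretch of 75 bases with another gene's transcripts.

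The classical heavy chains H2-D1 and H2-K1, which present peptides to CD8 T cells, were far lower. H2-D1 stood at 15.2 FPKM in replicate 1 and 6.62 FPKM in replicate 2 (chromosome 17, 35399675 to 35404444). H2-K1 stood at 6.04 and 4.71 FPKM (34132962 to 34137278). H2-D1 was thus the higher in each library, and both genes were higher in replicate 1. The log2 ratio of H2-K1 to H2-D1 was -1.21 in replicate 1 and -0.42 in replicate 2 (-0.81 ± 0.56), so its size depends on the library. B2m exceeded H2-K1 17.5-fold (log2 ratio 4.13 ± 0.20) and H2-D1 9.99-fold (3.32 ± 0.76), on the log2(FPKM + 1) scale. Against H2-D1 the log2 ratio was 2.78 in replicate 1 and 3.86 in replicate 2.

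Summed over all 24 class I heavy chain genes, the level was 32.9 FPKM in replicate 1 and 25.5 FPKM in replicate 2. B2m was 3.37 times this sum in replicate 1 and 4.29 times in replicate 2. Left out of the sum are class I-like genes without the H2- prefix, such as Cd1d1, and H2 rows not typed as protein-coding, such as H2-T10. The ratio is therefore not one of B2m to all its possible partners. H2-D1 made up 46.4% of the sum in replicate 1 and 25.9% in replicate 2. Without H2-D1 the sums were 17.6 and 18.9 FPKM, the higher now in replicate 2.

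Of the class Ib genes in the Q and T regions, 2 of 10 were detected. These relatives of the classical chains include restricted and regulatory molecules, such as H2-T23, the Qa-1 antigen read by an inhibitory receptor of natural killer cells. H2-T24 was at 5.53 and 5.52 FPKM in replicates 1 and 2 and H2-Q4 at 2.59 and 4.71 FPKM. H2-T24 hardly moved between the libraries, whereas H2-Q4 was 1.82 times as high in replicate 2. H2-T23 lay just under the limit at 0.842 and 0.849 FPKM. H2-Q2, at 0.397 and 1.17 FPKM, reached the limit in replicate 2 alone. H2-T22, which gamma-delta T cells recognise, was at 0.518 and 0.774 FPKM, and H2-Q1 at 0.794 and 0.373 FPKM. H2-Q10, a secreted class Ib molecule known from liver, was at 0.267 ± 0.0688 FPKM, H2-Q7 at 0.148 ± 0.0906 and H2-Q6 at 0.0791 ± 0.0423 FPKM. H2-T3, the thymus leukaemia antigen of gut epithelium, was listed at 0 in replicate 2 and at 0.00588 FPKM in replicate 1.

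The M region genes were the lowest. Of 12, none was detected and 10 were listed at 0 in both libraries: all 6 M10 genes, which are known from vomeronasal sensory neurons, and H2-M1, H2-M2, H2-M9 and H2-M11. The others were H2-M3, which presents N-formylated peptides, at 0.287 and 0.232 FPKM in replicates 1 and 2, and H2-M5 at 0.139 and 0.0670 FPKM.

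Among the genes of peptide loading, tapasin was detected and the transporter was not. Tapbp, which encodes tapasin, was at 10.6 FPKM in replicate 1 and 11.98 FPKM in replicate 2. The transporter subunit Tap1 was at 0.317 and 0.347 FPKM, and its partner Tap2 at 0.441 and 0.340 FPKM. Tap1 and Tap2 overlapped in range, with a log2 ratio of -0.06 ± 0.10 (-0.18 with a pseudocount of 0.1 FPKM). The tapasin relative Tapbpl was at 1.20 ± 0.0300 FPKM, and the log2 ratio of Tapbp to it was 2.48 ± 0.13 (3.13 with a pseudocount of 0.1 FPKM). The Tapbp row overlaps that of Zbtb22 on the same strand by 3421 bases, and 18.6% of the 75-base stretches of its transcripts also occur in other genes, so its level is uncertain.

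General chaperones and enzymes of the same compartment were mostly high. All 8 listed genes found, Tapbpl among them, were detected (median 64.4 FPKM). Tapbpl and Erap1 were the lowest of them, followed by Uggt1 at 11.6 ± 1.10 FPKM. The chaperone Calr was at 305 ± 8.16 FPKM, the oxidoreductase Pdia3 at 236 ± 2.91 FPKM and the lectin chaperone Canx at 138 ± 6.21 FPKM. The peptide-trimming aminopeptidase Erap1 was at 4.26 ± 0.417 FPKM.

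The 3 subunits that replace the constitutive ones in the immunoproteasome were unequal. Psmb10 was detected, at 11.5 and 11.8 FPKM in replicates 1 and 2 (chromosome 8, 108459628 to 108462292). Psmb8 was at 0.322 and 0.288 FPKM and Psmb9 at 0.293 and 0.271 FPKM. Each was below the constitutive subunit it replaces. Psmb8 was lower than Psmb5 (118 ± 4.43 FPKM) by a log2 ratio of -6.51 ± 0.03, Psmb9 lower than Psmb6 (165 ± 0.960 FPKM) by -7.02 ± 0.03 and Psmb10 lower than Psmb7 (118 ± 1.48 FPKM) by -3.23 ± 0.05. These sizes hold for a pseudocount of 1 FPKM, and the ratios of Psmb8 and Psmb9 grow to -8.19 and -8.76 with 0.1 FPKM.

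Psmb9 and Tap1 lie head to head, and their RefSeq promoter windows share 275 bases. Both genes lay between 0.271 and 0.347 FPKM in either library, and the rows overlap by 200 or 212 bases, where reads cannot be told apart without strand. Psmb9 itself has 2 rows that cover nearly the same stretch. They held 0.0472 and 0.246 FPKM in replicate 1 against 0.191 and 0.0803 FPKM in replicate 2, so the row with more changed between the libraries while the sum stayed close. The proteasome activator subunits Psme1 and Psme2 were at 81.0 ± 3.27 and 30.5 ± 0.267 FPKM (log2 ratio 1.38 ± 0.05).

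**Figure D2:**
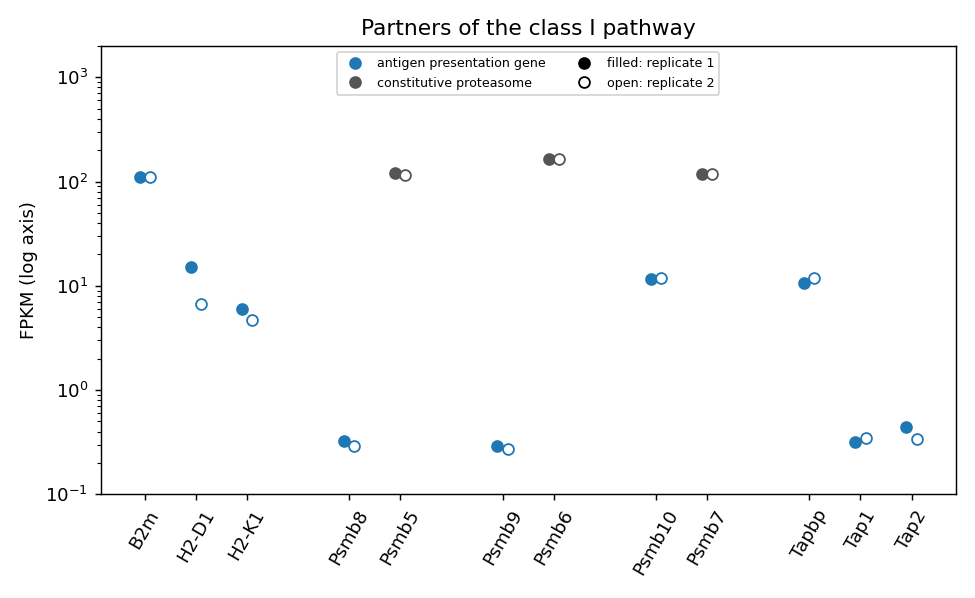
FPKM (log axis) of class I pathway genes in blue and of the constitutive proteasome subunits in grey, with replicate 1 filled and replicate 2 open. B2m, near 110 FPKM, stands above H2-D1 and H2-K1, and Psmb8, Psmb9, Tap1 and Tap2 lie between 0.271 and 0.441 FPKM.

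Class II genes were nearly all under the limit, with 1 of 11 detected. H2-DMa, the alpha chain of the peptide exchange factor H2-DM, was at 1.12 FPKM in replicate 1 and 1.84 FPKM in replicate 2. Its beta chains were lower, H2-DMb1 at 0.0530 and 0.140 FPKM and H2-DMb2 at 0.0224 and 0.0149 FPKM. H2-DMa shares 7.46% of its 75-base stretches with Brd2, a neighbour at 62.0 and 59.1 FPKM in replicates 1 and 2. The level of H2-DMa, close to the limit, is therefore uncertain. The peptide-binding chains were low throughout. H2-Eb1 was at 0.336 and 0.448 FPKM, H2-Ab1 at 0.170 and 0.360 FPKM and H2-Aa at 0.113 and 0.0190 FPKM, and H2-Eb2 was listed at 0 in both libraries. The invariant chain Cd74, which guides class II molecules to endosomes, was at 0.296 and 0.245 FPKM, and its log2 ratio to H2-Ab1 was 0.01 ± 0.19. The H2-DM inhibitor chains H2-Oa and H2-Ob were at 0.251 ± 0.0435 and 0.00858 ± 0.0121 FPKM, H2-Ob being listed at 0 in replicate 2. The log2 ratio of H2-DMa to H2-Oa was 0.97 ± 0.35, and that of H2-Aa to H2-Ab1, whose rows overlap by 88 bases, was -0.24 ± 0.24. These sizes are set by the pseudocount of 1 FPKM, and with 0.1 FPKM they became 2.13 and -1.15.

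The master regulators of the system were near 0. Ciita, the transactivator of class II genes, was at 0.0467 FPKM in replicate 1 and 0.0871 FPKM in replicate 2. Nlrc5, the transactivator of class I genes, was at 0.0463 and 0.00458 FPKM. Its row is typed as a lincRNA, so these values may not stand for its coding transcript. Other listed genes of transcription control, with the interferon regulatory factors Irf1, Irf2 and Irf8 among them, were detected in 10 of 10 cases (median 6.79 FPKM). The lowest was Irf8, at 1.04 ± 0.0514 FPKM. Rfxap was at 8.17 ± 0.227 FPKM, Rfx5 at 5.41 ± 0.147 and Rfxank at 4.71 ± 0.0574 FPKM. The CCAAT-binding subunits were higher, with Nfyc at 26.4 ± 1.40 and Nfya at 23.5 ± 0.113 FPKM. Irf1, which carries interferon signals to these genes, was at 4.17 ± 0.0969 FPKM. The interferon receptor chains and their kinases were all detected (7 of the 9 listed genes), for instance Ifngr2 at 29.4 ± 0.579 FPKM, Ifnar1 at 18.2 ± 0.693 FPKM and Ifngr1 at 9.48 ± 0.317 FPKM. The ligands Ifng and Ifnb1 were listed at 0 in both libraries.

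Of 6 further genes of the class II route, 5 were detected. Endosomal enzymes with wider roles were high, Ctsl at 163 ± 6.95 FPKM and Lgmn at 46.3 ± 2.05 FPKM. Ctss, the protease that trims the invariant chain, was at 2.99 ± 0.0641 FPKM, and the ubiquitin ligase March1, which removes class II molecules from the surface, at 0.178 ± 6.43e-05 FPKM.

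Markers of cells that carry these molecules were measured alongside. Macrophage markers were detected in 9 of 11 cases, with sums of 43.9 FPKM in replicate 1 and 40.9 FPKM in replicate 2, and none was at 0 in both. Those not detected were Fcgr1, at 0.837 and 0.825 FPKM in replicates 1 and 2, and Cd163, at 0.00593 and 0 FPKM. Csf1r was at 3.32 ± 0.365 FPKM and Lyz2 at 21.7 ± 0.805 FPKM. Lyz2, at 22.3 and 21.1 FPKM in replicates 1 and 2, was by far the largest part of each sum. Of 9 dendritic cell and costimulation markers 2 were detected, Zbtb46 at 3.80 ± 0.0674 FPKM, which endothelium also expresses, and Batf3 at 1.32 ± 0.281 FPKM. The sums were 5.51 and 5.99 FPKM, Itgax was at 0.0377 FPKM, and Cd209a was at 0 in both. None of 5 B cell markers (sums 0.252 and 0.211 FPKM, Ms4a1 and Pax5 at 0) and none of 7 T and natural killer cell markers (sums 0.0738 and 0.0641 FPKM, Cd8b1 and Ncr1 at 0) was detected. Endothelial markers were detected in 6 of 6 cases, with sums of 179 and 166 FPKM. The part of these cells in the levels of the 44 genes was not tested.

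Among the 10 detected genes are 2 that carry the H2- prefix by position and encode no MHC molecule. H2-Ke2, the prefoldin subunit Pfdn6, was at 41.3 FPKM in replicate 1 and 42.2 FPKM in replicate 2. H2-Ke6, a hydroxysteroid dehydrogenase, was at 9.97 and 13.6 FPKM, and 65.5% of its 75-base stretches also occur in the overlapping gene Gm20427. Without them 8 of 42 genes were detected. In the order of the 10 levels, 5 of the 9 neighbouring pairs overlapped in their ranges over the libraries. B2m stood clear of H2-Ke2 and H2-Ke2 of H2-Ke6. H2-Ke6, Psmb10, Tapbp and H2-D1, with means between 10.9 and 11.8 FPKM, overlapped each with the next, as did H2-T24 with H2-K1 and H2-K1 with H2-Q4.

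Of the 44 genes, 40 lie on chromosome 17. From H2-Ke2 to H2-M2 (34075766 to 37620497, mm9) the files place 184 protein-coding symbols, 39 of them among the 44 and 145 others. Detected were 7 of the 39 (17.9%) and 70 of the 145 others (48.3%). The medians were 0.251 FPKM for the 39 and 0.549 FPKM for the others, of which 16 are olfactory receptor genes with none detected. Without these 16, 70 of 129 others were detected and their median was 2.10 FPKM. The highest of the others were the tubulin Tubb5 at 630 ± 11.4 FPKM, Rps18 at 98.8 and 451 FPKM in replicates 1 and 2, the RNA helicase Ddx39b at 168 ± 10.4, Clic1 at 135 ± 7.63 and the collagen receptor Ddr1 at 84.7 ± 0.193 FPKM. Genes at or near 0 and genes of high level thus lie side by side in the interval.

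**Figure D3:**
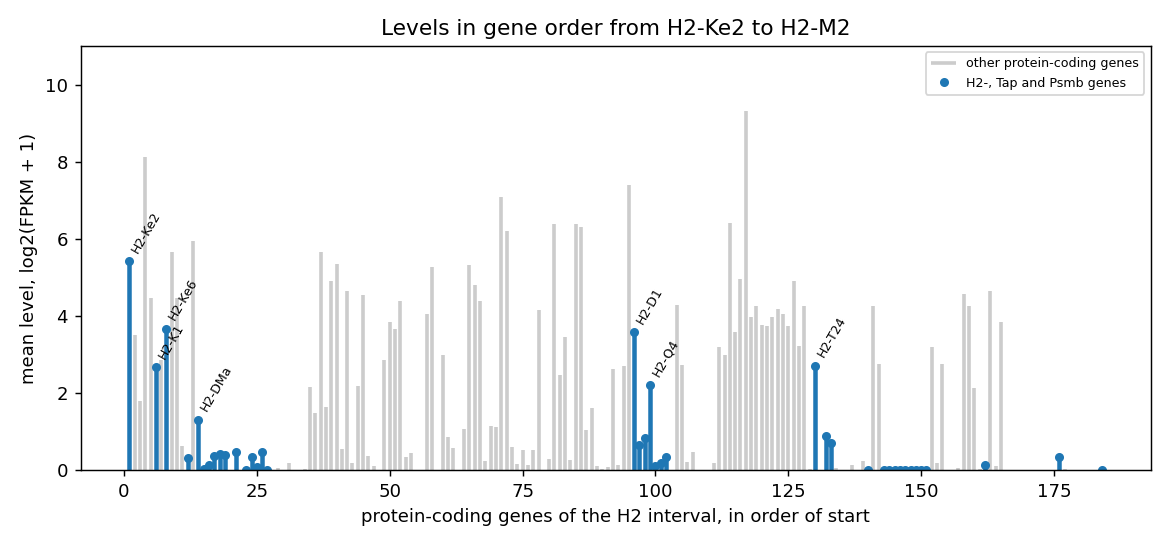
Mean level on the log2(FPKM + 1) scale of the 184 protein-coding genes from H2-Ke2 to H2-M2, in order of their start, with the 39 H2, Tap and Psmb genes in blue and the 145 others in grey. The 7 labelled genes average at least 1 FPKM; the block of M genes at the right is at or near 0.

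The spread between the libraries was uneven among these genes. Among those averaging at least 1 FPKM, 13 of 11757 protein-coding genes (0.111%) differed 2-fold or more on the log2(FPKM + 1) scale, 10 higher in replicate 2 (0.0851%) and 3 higher in replicate 1 (0.0255%). H2-D1 was 1 of these 3, with a log2 difference of -1.09 for replicate 2 minus replicate 1, and was the single one of the 10 detected genes to differ that much. In the range of 5 to 20 FPKM, 95% of 5253 protein-coding genes differed by less than 0.21. There H2-D1, H2-Ke6 (0.41) and H2-K1 (-0.30) lay beyond that limit, while H2-T24 (-0.0036), Psmb10 (0.04) and Tapbp (0.16) lay within it. H2-Q4 (0.67) and H2-DMa (0.42) also lay beyond the limits for their own level, 0.28 between 2 and 5 FPKM and 0.35 between 1 and 2 FPKM. B2m (-0.01) and H2-Ke2 (0.03) did not.

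**Figure D4:**
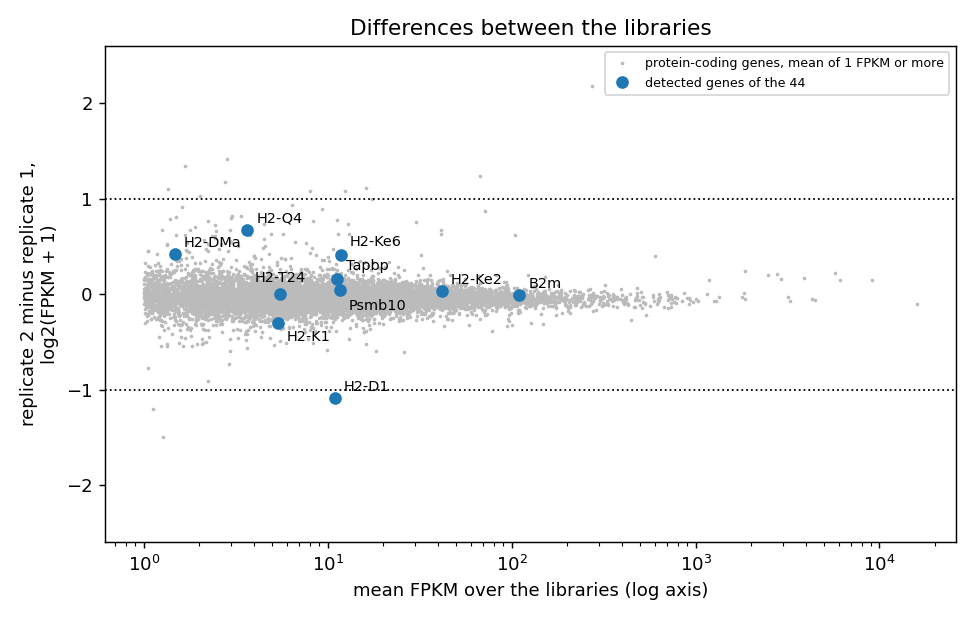
Replicate 2 minus replicate 1 on the log2(FPKM + 1) scale against mean FPKM (log axis) for 11757 protein-coding genes averaging at least 1 FPKM in grey and the 10 detected genes of the 44, H2-Ke2 and H2-Ke6 included, in blue; dotted lines mark 2-fold. H2-D1 lies below the lower line at -1.09, H2-Q4 at 0.67, and B2m at -0.01.

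Class I heavy chain genes are close copies, and how the authors treated reads with several matches is not given in the sources used here. GENCODE M21 transcripts were matched for 43 of the 46 rows. Of these, 27 shared at least 1 stretch of 75 bases with another gene, on either strand, and 11 shared 10% or more. Both counts mix related genes, such as H2-Q6 with H2-Q7, and genes overlapping in position, such as H2-Ke6 with Gm20427 and Psmb8 with Gm20496. Sharing was not measured for other protein-coding genes, so whether it is commoner among these rows was not tested. The share of such stretches was 5.56% for H2-D1 (19 other genes, 4.25% with H2-Q1 alone), 3.10% for H2-K1, 20.7% for H2-Q4 and 0.459% for H2-T24. It was 21.1% for H2-Q6, 16.95% for H2-Q7, 12.5% for H2-Q10 and 10.9% for H2-Q1, so levels of single Q genes are uncertain. H2-T22 shared 39.97%, mostly with A930015D03Rik, and its row lies within that of the antisense gene BC023719, at 9.83 and 8.85 FPKM in replicates 1 and 2. Other rows, among them those of B2m, Tap2, Psmb8, Psmb10, H2-Q4, H2-T23 and H2-T24, also overlap rows on the other strand, where reads cannot be told apart without strand. The part of shared reads in the differences between the libraries was not tested.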

How the data were processed

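RNA sequencing of 2 mouse heart samples at embryonic day 12.5 was analysed. Trizol was used for extraction of total RNA and a TruSeq RNA v2 kit for the libraries, per the labels' protocols. The authors deposited 1 table of FPKM values per sample. GSNAP, Cufflinks and Cuffnorm and the builds mm9 and hg19 are named, per the submitters' processing notes. Versions, annotation, strand setting and treatment of multiply matching reads are not stated. The positions fit mm9, since chromosome 1 has a gene ending at 197054592, past every gene end (195323493 at most) of GENCODE M21 on GRCm38. Promoters and transcripts came from RefSeq and GENCODE on GRCm38, with no conversion of coordinates.

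Rows with the same symbol were summed. The log2 scale used a pseudocount of 1 FPKM, so ratios of low genes come out too small. No count model was fitted, since counts were not used. The members, gene lists and pairs were chosen with earlier results of these data known, and the motif letters after the promoters were seen. All genes of the rule and of the lists may be named, and of the other genes of the chromosome 17 interval the 5 highest. Of the listed genes, Sppl2a is not analysed here. A further gene was left out of the lists and is not reported here. Other detection limits, pseudocounts, filters, a rescaling, the highest of a symbol's rows and single libraries were tried. The 2-fold rule was also run on simulated libraries with random counting noise alone, at an assumed depth. They hold no other spread between libraries and no shared reads, so they do not show how the rule fares on these data. Python 3.11.15 with pandas 2.3.3, NumPy 2.4.6 and Matplotlib 3.10.9 was used.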

Additional observations from a re-analysis of the deposited data

How the results depend on the processing

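The count of 10 detected genes was 12 at a limit of 0.5 FPKM and 9 at 2 FPKM, 11 in replicate 2 alone and 10 in replicate 1 alone. The 1 gene differing 2-fold between the libraries, H2-D1, made the count 1 under every filter, pseudocount and rescaling tried. The median log2(FPKM + 1) of the 44 genes, 0.33, became 0.68 over those averaging at least 0.1 FPKM and -1.49 with a pseudocount of 0.1 FPKM, and lay at 0.31 and 0.32 in single libraries. Its distance to all protein-coding genes, -1.08, became -2.37 and -2.31 in the same settings and lay between -1.10 and -1.09 in single libraries. With a pseudocount of 0.1 FPKM the log2 ratios became -8.19 for Psmb8 to Psmb5, -8.76 for Psmb9 to Psmb6, -3.33 for Psmb10 to Psmb7, -0.18 for Tap1 to Tap2, 3.13 for Tapbp to Tapbpl, -0.42 for Nlrc5 to Ciita (-0.06 at 1 FPKM), -1.15 for H2-Aa to H2-Ab1, 4.34 for B2m to H2-K1 and 2.13 for H2-DMa to H2-Oa. A smaller pseudocount widens ratios of low genes by construction. With the highest row per symbol, Psmb9 to Psmb6 was -7.09. The heavy chain sum, 29.2 FPKM, was 18.3 FPKM without H2-D1. Of 76 alternatives over 18 results, 58 moved the value by no more than the SD over the libraries or, for counts, by no more than 1.5 times. That count is no measure of robustness, because many settings could not move a value. With 2 libraries, a single library always lies within the SD of a mean pair ratio or mean heavy chain sum. The highest row per symbol left every pair ratio but Psmb9 to Psmb6 unchanged. No direction of a ratio beyond the spread of single genes turned. The settings for the distance to all protein-coding genes, the leaving out of H2-Ke2 and H2-Ke6 and all settings of the heavy chain sum were chosen after seeing the data. No paired analysis was possible because both samples belong to 1 group. Unknown depth limits the genes under 1 FPKM most, where few fragments stand behind a value.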

Other observations

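Class I-like molecules encoded without the H2- prefix were detected in 5 of 7 cases. Cd1d1, which presents lipids to natural killer T cells, was at 13.7 ± 0.102 FPKM, above H2-K1 in both libraries, while its close relative Cd1d2 was at 0.170 ± 0.121 FPKM. The neonatal Fc receptor Fcgrt was at 6.60 ± 0.341 FPKM, the protein C receptor Procr at 5.51 ± 0.822, Mr1, which presents vitamin metabolites, at 2.48 ± 0.0212 and the iron regulator Hfe at 2.23 ± 0.0333 FPKM. Azgp1 was listed at 0.

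Of the H2 rows that the files do not type as protein-coding, H2-T10, a polymorphic pseudogene there, reached 1.501 FPKM in replicate 1 and 1.68 FPKM in replicate 2, which is above H2-T22 and H2-T23. H2-Bl was at 0.499 ± 0.192 FPKM and the pseudogene H2-K2 at 0.353 ± 0.156 FPKM. H2-Q5, H2-Q3, H2-Ea-ps and H2-M6-ps lay between 0.0717 and 0.0145 FPKM.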
